A study of Mus musculus with 20 samples.

Results

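The telomeric boundary of the *Fgf8* TAD was followed as a viewpoint in capture Hi-C of mouse limb buds. It was taken as the 3 bins of 5 kb from 45820001 to 45835000 on chromosome 19 (mm9), next to *Fgf8* but without the gene. Its stripes are the bin pairs that join one of these bins to a bin 25 kb or more away in the captured interval from 44440001 to 46400000. This gave 1149 bin pairs of the 77028 in the interval, of which 819 ran towards the centromere and 330 towards the telomere. The members were chosen by position and not by their signal. *Fgf8* itself lies closer than 25 kb to the viewpoint, so no bin pair joins them here.

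Forelimb and hindlimb buds of E11.5 embryos had been dissected together. The 20 libraries were merged by the authors into 6 maps, 1 per genotype. The wild-type embryos were labelled c57bl6.J and had 3 biological replicates and 1 technical replicate. The mutants were labelled G4 ESC, a hybrid mouse embryonic stem cell line in which the alleles were made with CRISPR/Cas9 before aggregation. By these labels strain and genotype cannot be told apart. For their single-cell data, however, the authors give *Dup* a C57Bl6 background, so the background of *Dup* here is uncertain. Homozygous *Dup*, *Inv1* and *Inv2* had 3 biological replicates and 1 technical replicate each. For heterozygous *Inv1* there were 3 biological replicates. Heterozygous *Dup* was a single library whose genotype label names an inversion and which was placed by its title. *Dup* duplicates 541.1 kb between guide cuts after positions 45251633 and 45792725. *Inv1* inverts 123.1 kb between 45611050 and 45734101, and *Inv2* inverts 460.4 kb between 45332288 and 45792725. The telomeric cut lay 27.3 kb from the viewpoint in *Dup* and *Inv2* and 85.9 kb in *Inv1*, so the viewpoint itself was outside every rearrangement.

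TADs are stretches of chromatin that contact themselves more than their neighbours. Many of their boundaries hold binding sites of CTCF, a zinc finger protein that halts the loop-forming cohesin complex in an orientation-dependent way, and a boundary that meets a whole neighbouring domain appears in a contact map as a stripe. *Fgf8* encodes a growth factor of the apical ectodermal ridge (AER), the epithelial rim that drives limb outgrowth, and most of its AER enhancers lie in introns of *Fbxw4*, inside the *Fgf8* TAD.

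The viewpoint held *Npm3* (45822224 to 45824081, minus strand), which encodes a nucleoplasmin family chaperone, the non-coding *Gm15491*, and the 3′ end of *Oga* (45824751 to 45858236, minus strand; *Mgea5* in the annotation of this build), which encodes the enzyme that removes O-GlcNAc. A core CTCF motif (CCA, any 2 bases, AG, any 2 bases and GGC, on either strand) matched the mm9 sequence of the viewpoint 4 times, 3 times on the plus and 1 time on the minus strand. These matches are shown because they are the candidate CTCF letters inside the viewpoint. Each is printed on its own strand with the matched bases in capitals.
Match 1, chr19:45821015-45821044, plus strand, intergenic: taaacacgcCCACCAGAGGGCgctagttcc
Match 2, chr19:45822158-45822187, minus strand, intergenic: ccccagggaCCACCAGGTGGCactgtggcc
Match 3, chr19:45827097-45827126, plus strand, intron of *Oga*: tcagacacaCCACAAGAGGGCatcagaccc
Match 4, chr19:45830687-45830716, plus strand, intron of *Oga*: tcagacacaCCAGAAGAGGGCatctaatcc
The third and the fourth match were both preceded by tcagacac, which preceded 5 of the 12 matches in the 3 boundaries together. The first and the second match both lay in the first bin of the viewpoint.

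The centromeric boundary of the *Lbx1* TAD (25 kb) held 6 matches, 3 on each strand, and the middle boundary between both TADs (35 kb) held 2, 1 on each strand. A match is common in windows of these sizes. At least 1 was found in 82.8% of the 390 windows of 15 kb in the captured interval, in 94.3% of the 388 of 25 kb and in 98.2% of the 386 of 35 kb. As many matches as in the boundary or more were found in 13.3%, 10.6% and 94% of them. The 3 matches in the bin of the centromeric boundary with the highest contact, described below, are shown beside those of the viewpoint.
Centromeric boundary 1, chr19:45296086-45296115, plus strand, intergenic: gtcatcagaCCACCAGCCGGCccctggcaa
Centromeric boundary 2, chr19:45297042-45297071, plus strand, intergenic: agcctctgcCCAGCAGGTGGCccaggaagc
Centromeric boundary 3, chr19:45297519-45297548, minus strand, intergenic: gcggataaaCCAAGAGCAGGCtaatctacc
These matches are a description of letters. CTCF binding was not analysed here.

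Contact is given as observed over expected (O/E), the deposited signal of a bin pair over the mean of all bin pairs of the same map at the same distance. Distances follow the reference order unless stated. The wild-type and inversion maps are KR-balanced, so every bin has about the same total and a higher value in one place lowers others. The *Dup* maps are LOIC-normalized, in which duplicated bins keep a higher total. The O/E of the viewpoint, which lies outside the duplication, was lower on this scale over both stripes as a whole, but in homozygous *Dup* the *Fgf8* TAD and the middle boundary, inside the duplication, were not. *Dup* values are therefore given as deposited and after balancing to equal bin totals. Which copy number LOIC assumed for heterozygous *Dup* was not stated in the sources at hand, which limits what its deposited values mean. Dividing out the bin factors gave whole read pairs for 100% of values in every map. The stripes held 86525 read pairs in the wild-type, 116525 in homozygous *Dup*, 142532 in homozygous *Inv1*, 151534 in homozygous *Inv2*, 16848 in heterozygous *Dup* and 97313 in heterozygous *Inv1*. Ranges in brackets are 95% counting intervals from these read pairs. They cover counting error only, and with 1 merged map per genotype no spread between embryos and no test could be computed.

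In the wild-type limb bud the boundary contacted the 2 directions very differently. Towards the centromere its mean O/E was 1.40 (1.38 to 1.42) over 58860 read pairs. Towards the telomere it was 0.825 (0.811 to 0.838) over 27665 read pairs, below the mean at equal distance. Set against 284 windows of 3 bins with at least 300 bin pairs in that direction, the viewpoint ranked 13 from the highest towards the centromere, where the windows had a median of 0.963 and ran from 0.540 to 2.26. Towards the telomere it ranked 212, with a median of 0.923 and a range from 0.503 to 2.08. A stripe above the mean at equal distance was thus present towards the centromere and not over the telomeric side as a whole.

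The difference between the directions depended on distance. From 25 to 100 kb the mean O/E was 0.770 towards the centromere and 0.608 towards the telomere, a ratio of 1.27 (1.23 to 1.31). From 100 to 200 kb it was 1.66 and 0.770, a ratio of 2.16 (2.09 to 2.23). From 200 to 300 kb both directions were alike within the counting interval, at 1.40 and 1.39 (ratio 1.01, 0.975 to 1.05). The largest ratio, 3.56 (3.39 to 3.73), was found from 400 to 560 kb, where the mean O/E was 2.40 towards the centromere and 0.674 towards the telomere.

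**Figure D1:**
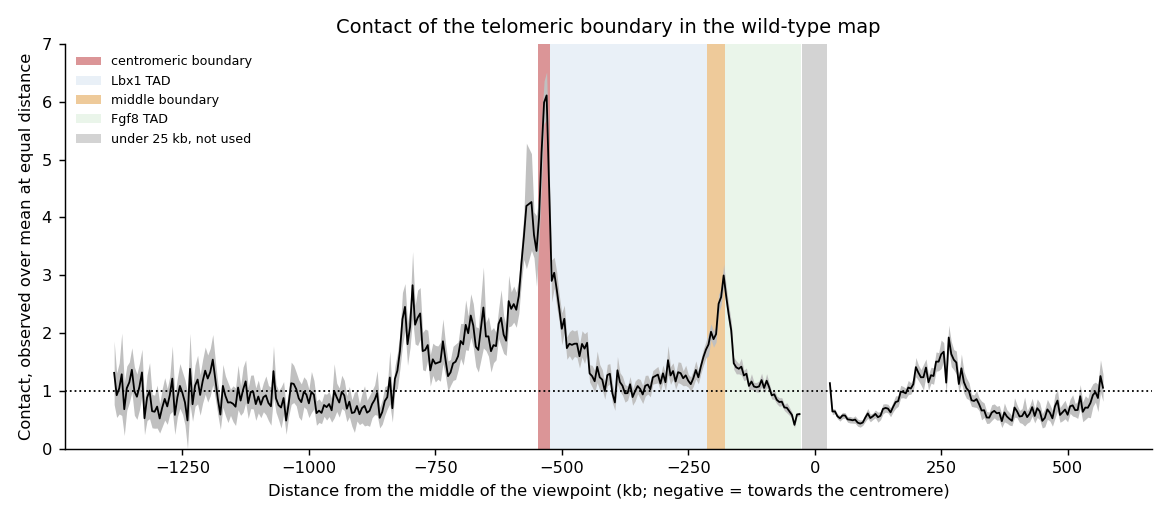
Contact of the 3-bin viewpoint with each 5 kb bin in the wild-type map, as observed over mean at equal distance (y axis) against distance from the middle of the viewpoint in kb (x axis, negative towards the centromere), with the 95% counting interval in grey. The line is highest at 6.11 in the centromeric boundary, has a second peak of 3.00 at the edge of the middle boundary, and stays below 1 telomeric of the viewpoint except next to the viewpoint, around a hump that peaks at 1.92 and at the far end.

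Towards the centromere, the contact came in steps. The *Fgf8* TAD at 25 kb or more had a mean O/E of 1.14 (1.13 to 1.16). This was 1.44 (1.41 to 1.47) over the piece of the TAD that holds most of the AER enhancers and is inverted in *Inv1*, and 0.752 (0.733 to 0.770) over the piece next to the viewpoint. The middle boundary, with *Poll* and the start of *Dpcd*, had 2.26 (2.20 to 2.32). The *Lbx1* TAD had 1.42 (1.39 to 1.44) and the centromeric boundary 5.14 (4.95 to 5.33). The 25 kb just outside that boundary had 3.90 (3.51 to 4.28) over 637 read pairs, and the centromeric flank of the captured interval 1.22 (1.19 to 1.24).

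Of the 269 partner bins towards the centromere, 81 (30.1%) had an O/E of 1.5 or more, beside 7 of 109 (6.42%) towards the telomere. Over all 3-bin windows and partner bins of the wild-type map this share was 11.2%. The windows overlap and share bins, so this background is a description.

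The profile had 8 local maxima with an O/E of 1.5 or more towards the centromere. The highest, 6.11 (5.71 to 6.52) over 906 read pairs, was the intergenic bin from 45295001 to 45300000 in the centromeric boundary, 530 kb away. The second, 3.00 (2.80 to 3.19) over 933 read pairs, was the bin from 45645001 to 45650000 at the telomeric edge of the middle boundary, inside *Dpcd* and 180 kb away. The third, 2.83 (2.25 to 3.41), lay in *Slf2*, 795 kb away, but rested on 93 read pairs. The fourth was intergenic, 2.44 (1.74 to 3.14) over 48 read pairs at 655 kb, and the fifth lay in *Lzts2*, 1.86 (1.47 to 2.24) over 93 read pairs at 735 kb.

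Towards the telomere there was 1 maximum, 1.92 (1.71 to 2.14) over 320 read pairs, in the intergenic bin from 46090001 to 46095000, 265 kb away. Telomeric contact was 0.615 (0.601 to 0.629) under 100 kb, 1.06 (1.04 to 1.08) from 100 to 300 kb and 0.707 (0.686 to 0.728) beyond. The telomeric side was thus a depleted stretch, a hump around 265 kb and a second depleted stretch.

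Whether the stripe stands out from its surroundings was measured against 3-bin windows 30 kb to either side, over the same partner bins. The bins in between, among them those of *Fgf8*, were not part of this contrast. The viewpoint exceeded the mean of both neighbours by 1.20 times (1.18 to 1.22) towards the centromere. This contrast was 1.80 (1.71 to 1.89) for the centromeric boundary, 1.73 (1.67 to 1.80) for the middle boundary and 1.30 (1.27 to 1.33) for the *Lbx1* TAD. It was smaller for the *Fgf8* TAD, 1.16 (1.14 to 1.19), and for the centromeric flank, 1.08 (1.05 to 1.11). With the *Fgf8* TAD the viewpoint had 1.26 over the shared partner bins. This lay between the neighbour on the *Fgf8* side, 1.40, and the one on the telomeric side, 0.761, so it exceeded only the latter. For the piece of the *Fgf8* TAD next to the viewpoint the contrast was 0.925 (0.892 to 0.959), so the stripe did not stand out there. Towards the telomere the contrast was 1.03 (1.00 to 1.05). There the neighbour on the *Fgf8* side had a mean O/E of 0.574 and the neighbour on the telomeric side 1.05. On the telomeric side the viewpoint thus lay on a slope between its neighbours.

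The 3 bins of the viewpoint differed among themselves. The first bin, which holds *Npm3* and both intergenic motif matches, had a mean O/E of 1.56 (1.53 to 1.59) towards the centromere and 0.712 (0.693 to 0.732) towards the telomere. In the second bin these were 1.36 (1.33 to 1.40) and 0.881 (0.857 to 0.906), and in the third 1.28 (1.245 to 1.312) and 0.882 (0.857 to 0.907). With the centromeric boundary the first bin reached 6.73 (6.40 to 7.07), the second 4.65 (4.32 to 4.98) and the third 4.05 (3.72 to 4.37). The bin of the *Fgf8* start, just outside the viewpoint, resembled the first bin, with 1.57 (1.53 to 1.60) towards the centromere and 0.612 (0.591 to 0.632) towards the telomere.

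Among annotated protein-coding genes, 21 genes had a start 25 kb or more towards the centromere, in 18 bins, and 9 of these bins had an O/E of 1.5 or more in the wild-type, beside 30.1% of all centromeric partner bins and 11.2% over all windows. The highest were *Lbx1*, which encodes a homeodomain factor of migrating limb muscle precursors, with 3.04 (2.78 to 3.31), and *Tlx1*, which encodes another homeodomain factor, with 2.55 (2.11 to 3.00). *Poll*, which encodes a DNA repair polymerase, and *Dpcd* share a start bin with 2.51 (2.34 to 2.67). *Kazald1* followed with 2.30 (1.93 to 2.68). *Btrc* encodes a substrate adaptor for protein ubiquitination, and its start bin had 1.36 (1.12 to 1.60) and that of the F-box gene *Fbxw4* had 1.18 (1.06 to 1.30).

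Towards the telomere, 11 genes had starts in 10 bins, and 2 bins reached 1.5, beside 6.42% of all telomeric partner bins. These were *Hps6*, which encodes a subunit of a complex for lysosome-related organelles, with 1.63 (1.39 to 1.88), and *Armh3* with 1.51 (1.35 to 1.66). *Ldb1*, which encodes a LIM domain cofactor, and *Pprc1*, which encodes a coactivator, share a bin with 1.39 (1.14 to 1.64), and the start of *Oga* had 1.14 (1.08 to 1.19). The start of *Kcnip2*, which encodes a potassium channel interacting protein, was the lowest with 0.508 (0.460 to 0.557), although it lies only 65 kb away.

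A mutant zone is called higher or lower below where it is at least 25% above or 20% below the wild-type, and a partner bin where it differs by 1.5-fold or more with at least 10 read pairs in both maps. In homozygous *Inv1* the stripe towards the centromere had a mean O/E of 1.29 (1.27 to 1.30), 0.919 times the wild-type value. The inverted piece of the *Fgf8* TAD was lower, 0.610 (0.596 to 0.624) against 1.44 in the wild-type, a ratio of 0.425 (0.412 to 0.438). The piece of the TAD that stayed in place had 0.917 (0.901 to 0.932) against 0.752, a ratio of 1.22 (1.18 to 1.26). The *Lbx1* TAD, at 1.30 (1.28 to 1.31), and the centromeric boundary, at 4.56 (4.43 to 4.69), had ratios of 0.917 (0.898 to 0.936) and 0.887 (0.847 to 0.929), within these limits. The 25 kb just outside the centromeric boundary was lower, 3.03 (2.77 to 3.30) against 3.90, a ratio of 0.779 (0.682 to 0.889), which was 0.914 (0.801 to 1.04) with the distances of the inverted chromosome.

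Of 267 partner bins towards the centromere, 28 (10.5%) were lower in homozygous *Inv1*, beside 4.41% over all windows and partner bins. In the higher direction there were 8 (3%), beside 4.73%. A run of 19 adjacent bins from 45640001 to 45735000, from *Dpcd* to *Fbxw4*, held most of the lower ones, with a mean O/E of 0.671 against 1.57 in the wild-type. None of the 109 telomeric bins passed in either direction. The share of partner bins with an O/E of 1.5 or more was 26.4% towards the centromere and 7.34% towards the telomere, beside 10.9% over all windows of this map.

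**Figure D2:**
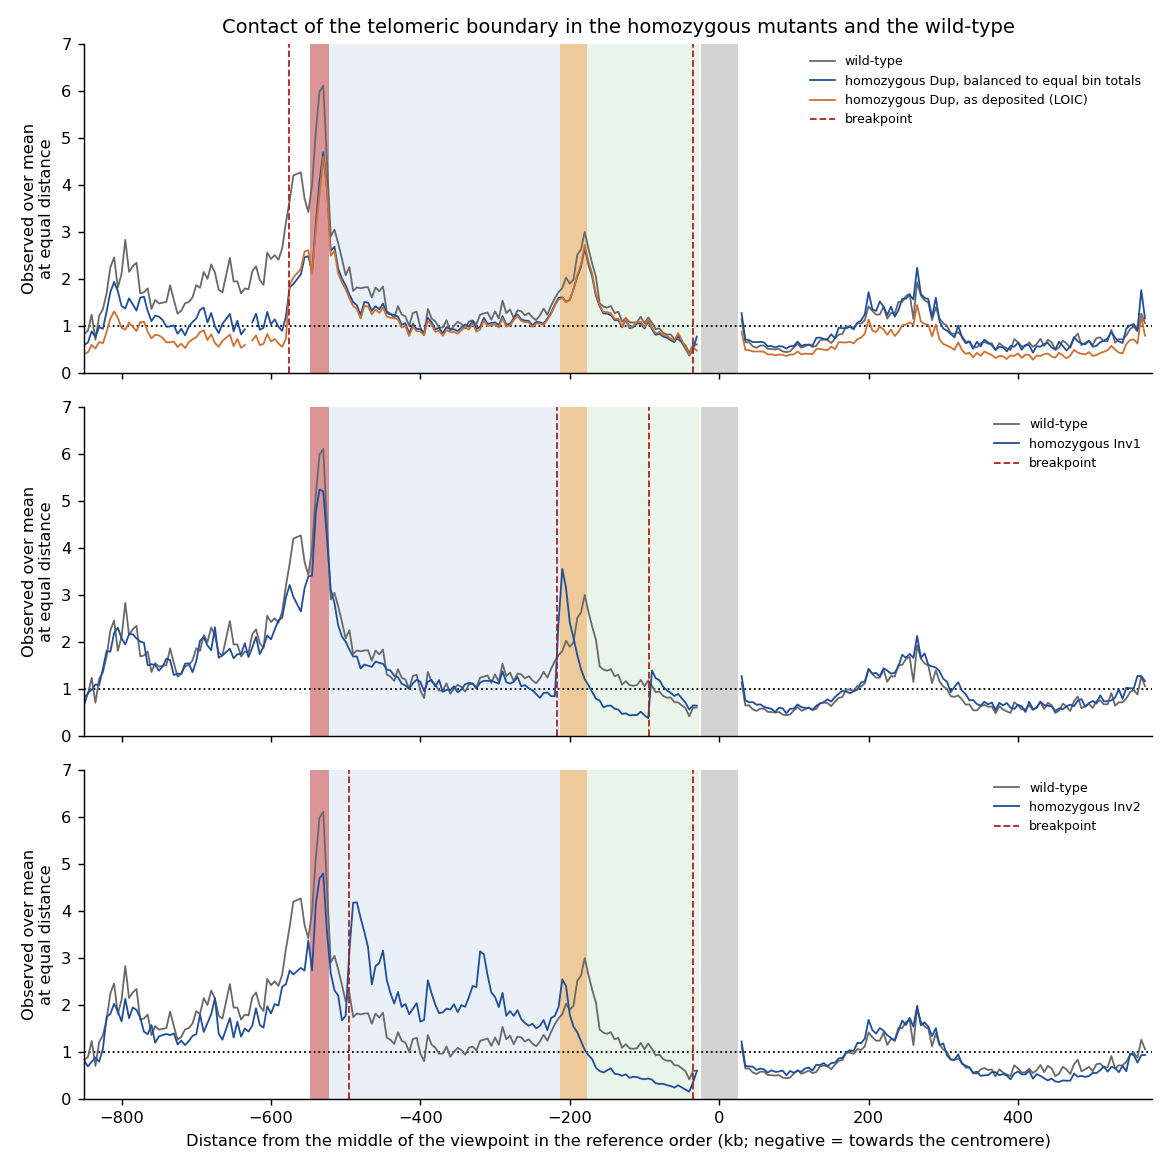
Contact of the viewpoint with each 5 kb bin in homozygous *Dup* (top), *Inv1* (middle) and *Inv2* (bottom) over the wild-type in grey, as observed over mean at equal distance (y axis) against distance in the reference order in kb (x axis). Shading marks, from left, the centromeric boundary, the *Lbx1* TAD, the middle boundary, the *Fgf8* TAD and the bins under 25 kb, and dashed lines mark breakpoints. In *Inv1* and *Inv2* the lines jump at the breakpoints, to 3.55 and to 4.18 on the inner side of the centromeric cut, while the telomeric side follows the wild-type. In *Dup* the balanced line follows the wild-type telomeric of the viewpoint and the deposited LOIC line lies below it.

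The contact changed abruptly at both *Inv1* cuts. On the outer side of the centromeric cut, the bin from 45605001 to 45610000 had 1.59 (1.45 to 1.73) in the wild-type and 0.841 (0.759 to 0.922) in homozygous *Inv1*. On its inner side, the bin from 45615001 to 45620000 had 1.80 (1.61 to 2.00) and 3.55 (3.34 to 3.76). At the telomeric cut, the inner bin had 1.05 (0.970 to 1.13) and 0.436 (0.395 to 0.477), and the outer bin 1.06 (0.994 to 1.14) and 1.39 (1.33 to 1.46). Heterozygous *Inv1* lay between both at all 4 places, with 1.14, 2.71, 0.720 and 1.24.

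The middle boundary as a whole kept its level in homozygous *Inv1*, at 2.22 (2.17 to 2.27) against 2.26, but its bins swapped order. In the wild-type, O/E was 1.80 at the centromeric edge of the middle boundary, 1.98 (1.84 to 2.12) in its middle bin and 3.00 at its telomeric edge. In homozygous *Inv1* it was 3.55 at the centromeric edge, 2.08 (1.98 to 2.19) in the middle bin and 1.20 (1.11 to 1.29) at the telomeric edge, so the ratios to the wild-type ran from 1.97 (1.74 to 2.23) to 0.401 (0.363 to 0.443). Heterozygous *Inv1* was intermediate at both ends, with 2.71 (2.52 to 2.90) and 1.92 (1.79 to 2.04). The higher edge was the telomeric one in the wild-type and the centromeric one in homozygous *Inv1*, in each case the edge nearer to the viewpoint on that chromosome. The start bin of *Poll* and *Dpcd* had 1.72 (1.62 to 1.83) in homozygous *Inv1*, 0.687 times the wild-type value.

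**Figure D3:**
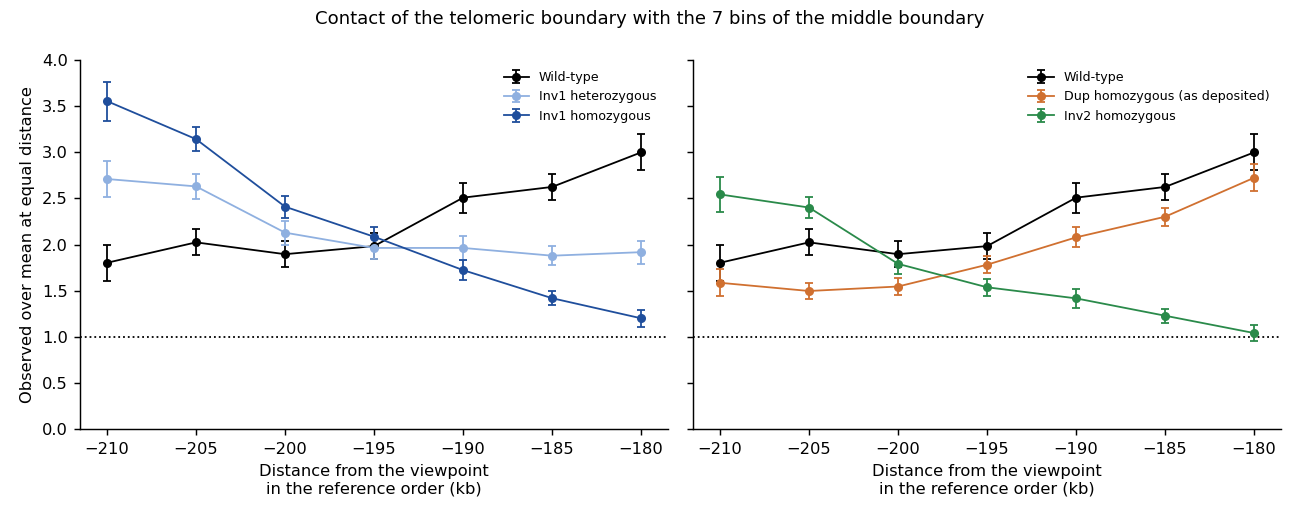
Contact of the viewpoint with the 7 bins of the middle boundary, as observed over mean at equal distance (y axis) against distance in the reference order in kb (x axis), with 95% counting intervals. Left: wild-type and both *Inv1* genotypes. Right: wild-type, homozygous *Dup* as deposited and homozygous *Inv2*. The wild-type and *Dup* values rise towards the viewpoint, up to 3.00 and 2.72, while those of homozygous *Inv1* and *Inv2* fall from 3.55 and 2.54 to 1.20 and 1.04.

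Expected contact was also computed from the wild-type decay over the inverted order. On this scale the inverted piece of the *Fgf8* TAD stayed lower in homozygous *Inv1*, with a ratio of 0.513 (0.497 to 0.529). The middle boundary, which the inversion brings closer, was then lower too, at 0.624 (0.603 to 0.645). The centromeric edge of the middle boundary, now 99.9 kb from the viewpoint in place of 210 kb, had an O/E of 1.93 (1.81 to 2.04) on this scale, and the telomeric edge 0.946, so the order of both edges was the same on either scale. The piece of the TAD that stayed in place had a ratio of 1.18 (1.14 to 1.21) and the *Lbx1* TAD 0.981 (0.960 to 1.00).

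Heterozygous *Inv1* had a mean O/E of 1.22 (1.21 to 1.24) towards the centromere. In the inverted piece of the *Fgf8* TAD it was 0.945 (0.924 to 0.965), lower than the wild-type by a ratio of 0.658 (0.639 to 0.678) and above the homozygote. The values of the whole *Fgf8* TAD, of both its pieces and of the telomeric stripe also fell between the wild-type and the homozygote. The interval of the telomeric ratio, 1.01 (0.988 to 1.03), included the wild-type value. Those of the centromeric boundary, the middle boundary and the *Lbx1* TAD did not fall between. Their ratios were 0.883 (0.840 to 0.929), 0.959 (0.926 to 0.994) and 0.901 (0.881 to 0.922), each with an interval that overlapped that of the homozygote. Of 266 partner bins towards the centromere 31 (11.7%) were lower, beside 5.05% over all windows, and 5 (1.88%) higher, beside 4.45%. Towards the telomere 2 of 109 were lower and 0 higher. The share with an O/E of 1.5 or more was 25.7% and 6.42% in the 2 directions, beside 12.2%.

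In homozygous *Inv2* contact was higher in the *Lbx1* TAD and lower in the *Fgf8* TAD. Towards the centromere the mean O/E was 1.37 (1.36 to 1.38), 0.980 times that of the wild-type. The *Lbx1* TAD had 2.23 (2.21 to 2.25) against 1.42, a ratio of 1.57 (1.54 to 1.60). The *Fgf8* TAD had 0.459 (0.450 to 0.468) against 1.14, a ratio of 0.401 (0.391 to 0.412), and its 2 pieces had ratios of 0.398 (0.385 to 0.411) and 0.415 (0.400 to 0.431). The middle boundary, 1.71 (1.67 to 1.75), and the centromeric boundary, 3.98 (3.87 to 4.10), were lower as well, with ratios of 0.755 (0.728 to 0.784) and 0.774 (0.739 to 0.811). The 25 kb just outside the centromeric boundary had a ratio of 0.740 (0.648 to 0.846), and of 0.928 (0.812 to 1.06) with the distances of the inverted chromosome.

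In *Inv2*, 43 of 267 partner bins towards the centromere (16.1%) were higher, beside 5.76% over all windows, and 43 were lower, beside 9.97%. The higher ones included a run of 40 adjacent bins from 45335001 to 45535000, from the centromeric cut into *Btrc*, with a mean O/E of 2.42 against 1.28. The lower ones included a run of 28 bins from 45635001 to 45775000, with 0.561 against 1.40. The start bin of *Btrc* had 2.52 (2.31 to 2.74) against 1.36, and that of *Fbxw4* 0.433 (0.380 to 0.486) against 1.18. The start of *Lbx1*, which lies outside this inversion, had 2.31 (2.17 to 2.46) against 3.04.

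Of the 4 highest local maxima of *Inv2*, 3 lay inside the inverted segment. The second highest maximum of *Inv2*, after the centromeric boundary with 4.80 (4.55 to 5.05), was the bin from 45340001 to 45345000 with 4.18 (3.98 to 4.39), 485 kb from the viewpoint in the reference order but 45.0 kb in the inverted one. The third lay in *Btrc* from 45505001 to 45510000 with 3.14 (3.00 to 3.28), at 320 kb in the reference and 210 kb in the inverted order. The fourth was the centromeric edge of the middle boundary, with 2.54 (2.36 to 2.73). On the scale of the inverted order, the second maximum had an O/E of 0.601 (0.571 to 0.630), the third 2.33 (2.23 to 2.43) and the fourth 3.31 (3.07 to 3.56).

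The zone ratios of *Inv2* turned with the distances. In the inverted order the *Lbx1* TAD had a ratio of 0.966 (0.947 to 0.985) in place of 1.57, and the *Fgf8* TAD 1.40 (1.37 to 1.44) in place of 0.401. The piece of the *Fgf8* TAD that holds most AER enhancers had 1.02 (0.982 to 1.05), and the piece next to the viewpoint, most of which *Inv2* moves away, 2.37 (2.28 to 2.47). The middle boundary had 1.13 (1.09 to 1.17) and the centromeric boundary 0.970 (0.925 to 1.02). The share of partner bins with an O/E of 1.5 or more, in the reference order, was 37.9% towards the centromere and 10.1% towards the telomere, beside 12.1%.

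**Figure D4:**
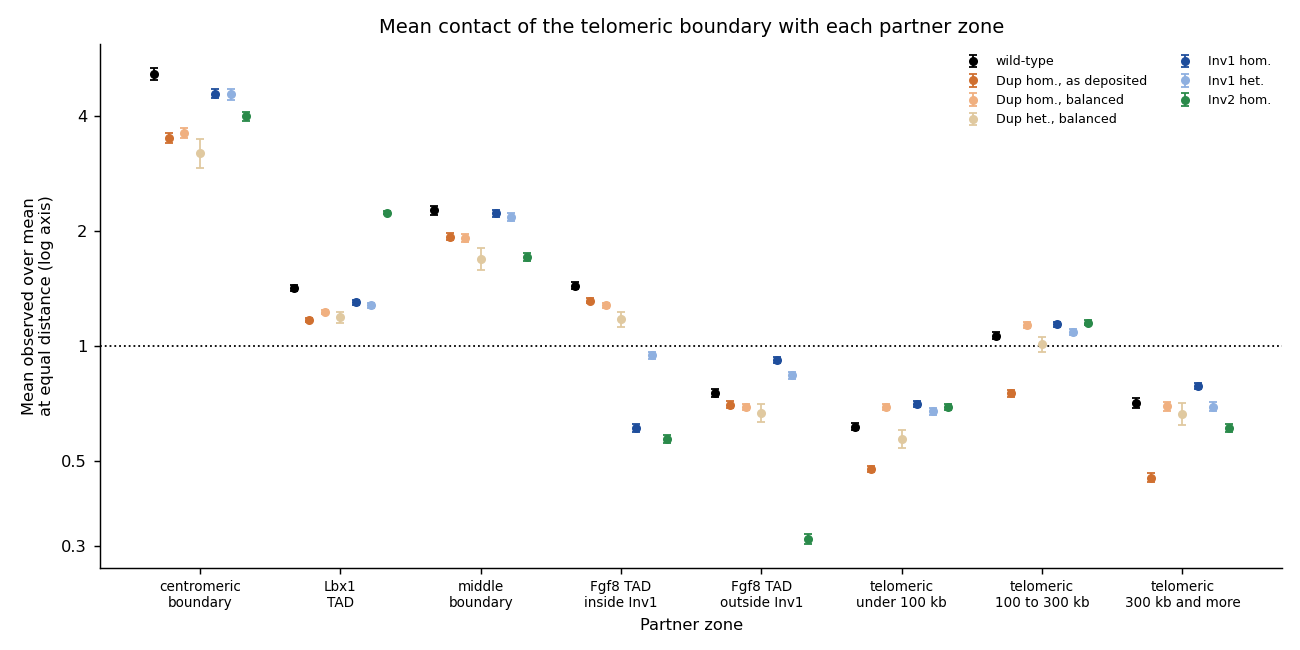
Mean contact of the viewpoint with 8 partner zones (x axis) in the 6 genotypes, homozygous *Dup* in both versions and heterozygous *Dup* balanced, as observed over mean at equal distance on a log axis (y axis), with 95% counting intervals. The zones inside the TADs spread most between genotypes: the *Lbx1* TAD reaches 2.23 in *Inv2*, and the inverted piece of the *Fgf8* TAD drops to 0.610 in *Inv1* and 0.571 in *Inv2*. The telomeric zones of the KR and balanced maps lie close together, and homozygous *Dup* as deposited lies below them.

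In homozygous *Dup* the stripe towards the centromere had a mean O/E of 0.943 (0.930 to 0.957) as deposited and 1.09 (1.08 to 1.11) after balancing, against 1.40 in the wild-type, ratios of 0.674 (0.661 to 0.687) and 0.781 (0.766 to 0.797). Contact was lower beyond the duplication and with the far boundary in both versions. The centromeric flank had 0.674 (0.654 to 0.694) as deposited and 0.909 (0.883 to 0.934) balanced against 1.22, ratios of 0.555 (0.535 to 0.576) and 0.748 (0.722 to 0.775). The centromeric boundary had 3.49 (3.38 to 3.60) and 3.60 (3.49 to 3.71) against 5.14, ratios of 0.679 (0.647 to 0.713) and 0.700 (0.667 to 0.735). Between them, the 25 kb just outside the boundary had ratios of 0.604 (0.526 to 0.694) and 0.572 (0.499 to 0.656).

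Inside the duplication no other zone was called higher or lower in either version. The *Lbx1* TAD had a ratio of 0.825 (0.808 to 0.843) as deposited and 0.865 (0.847 to 0.884) balanced. This ratio was lower with the first bin alone as viewpoint, 0.798 (0.774 to 0.823), and turned to higher, 1.253 (1.227 to 1.280), when the mean at equal distance was taken without the duplicated interval, so its direction depended on these choices. That of the *Fgf8* TAD turned too, to 1.23 (1.21 to 1.26). As deposited and balanced, the middle boundary had 0.853 (0.824 to 0.883) and 0.846 (0.817 to 0.876) and the *Fgf8* TAD 0.920 (0.902 to 0.939) and 0.899 (0.881 to 0.917). The profile of the middle boundary kept the direction of the wild-type, from 1.59 (1.44 to 1.73) at its centromeric to 2.72 (2.58 to 2.87) at its telomeric edge as deposited, and from 1.60 to 2.66 balanced. The start bin of *Lbx1* had 2.59 (2.42 to 2.77) as deposited and 2.68 (2.50 to 2.86) balanced. That of *Btrc* had 1.11 (0.959 to 1.27) and 1.17 (1.00 to 1.33), and that of *Fbxw4* 1.14 (1.05 to 1.23) and 1.09 (1.01 to 1.18).

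A step marked the centromeric *Dup* cut. The bin from 45245001 to 45250000, just outside the duplication, had 3.19 (2.87 to 3.51) in the wild-type, 0.722 (0.600 to 0.844) in homozygous *Dup* as deposited and 1.20 (0.995 to 1.40) balanced. The bin from 45255001 to 45260000, just inside, had 4.20 (3.11 to 5.28), 2.03 (1.40 to 2.65) and 1.89 (1.31 to 2.47), on 59 read pairs in the wild-type and 43 in *Dup*. With the distances of the duplicated order, summed over the copies, the centromeric flank had a ratio of 1.04 (1.00 to 1.07) and the centromeric boundary 0.784 (0.747 to 0.823). The 25 kb just outside that boundary stayed lower, at 0.557 (0.485 to 0.639).

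As deposited, 112 of 263 partner bins towards the centromere (42.6%) and 48 of 109 towards the telomere (44%) were lower, beside 17.3% over all windows, and 4 and 0 were higher, beside 14.4%. Balanced, 64 (24.3%) and 0 were lower, beside 5.45%, and 5 and 0 higher, beside 5.2%. The longest run of lower bins after balancing, 12 bins from 45200001 to 45260000, ended at the cut and had 1.20 against 2.65. An O/E of 1.5 or more was found in 10.1% and 0% of partner bins in the 2 directions as deposited, beside 12.9%, and in 14.6% and 11% after balancing, beside 10%.

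Heterozygous *Dup* was a single library with the fewest read pairs. Its mean O/E towards the centromere was 0.896 (0.867 to 0.925) as deposited and 0.953 (0.921 to 0.985) balanced. The centromeric flank was lower, with ratios of 0.498 (0.464 to 0.535) and 0.589 (0.549 to 0.631), as was the centromeric boundary, with 0.627 (0.571 to 0.688) and 0.621 (0.566 to 0.682). Both lay below the homozygote, within overlapping intervals for the boundary, and not between it and the wild-type. The *Lbx1* TAD had ratios of 0.839 (0.808 to 0.872) and 0.839 (0.807 to 0.872), within the limits of a call. With the first bin alone as viewpoint it was lower, 0.789 (0.748 to 0.833), and without the duplicated interval in the mean its direction turned, to 1.08 (1.04 to 1.13). The middle boundary was lower, at 0.771 (0.717 to 0.830) and 0.747 (0.695 to 0.803), but had 0.883 (0.821 to 0.950) with the distances of the duplicated order. Of the 154 centromeric partner bins with enough read pairs, 48 (31.2%) were lower and 0 higher as deposited, beside 8.16% and 12.2%, and 43 (27.9%) and 1 after balancing, beside 4.58% and 7.58%. An O/E of 1.5 or more was found in 11.2% of centromeric bins as deposited, beside 12.8%, and in 11.6% after balancing, beside 12.4%.

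The telomeric side of the viewpoint kept its shape across genotypes. Its mean O/E was 0.825 in the wild-type, 0.903 (0.892 to 0.913) in homozygous *Inv1*, 0.816 (0.807 to 0.825) in homozygous *Inv2* and 0.833 (0.821 to 0.845) in heterozygous *Inv1*. The ratios were 1.09 (1.07 to 1.12), 0.990 (0.970 to 1.01) and 1.01 (0.988 to 1.03), within the limits of a call. In homozygous *Dup* it was 0.564 (0.555 to 0.572) as deposited, lower by a ratio of 0.683 (0.668 to 0.699), but 0.854 (0.842 to 0.867) balanced, a ratio of 1.04 (1.01 to 1.06). In heterozygous *Dup* the ratios were 0.751 (0.722 to 0.782) and 0.943 (0.906 to 0.982), and of 102 telomeric partner bins 23 (22.5%) were lower and 0 higher as deposited, beside 8.16% and 12.2% over all windows. After balancing 4 (3.92%) were lower and 1 (0.98%) higher, neither above the 4.58% and 7.58% over all windows. The lower telomeric value of *Dup* thus held for the deposited LOIC scale and not after balancing. It did not hold either on the deposited scale without the duplicated interval in the mean, with ratios of 0.984 (0.963 to 1.01) and 0.941 (0.904 to 0.979).

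The intergenic maximum at 265 kb was found in each KR map, at 2.13 (1.96 to 2.30) in homozygous *Inv1*, 1.98 (1.81 to 2.15) in homozygous *Inv2* and 1.89 (1.70 to 2.09) in heterozygous *Inv1*. In homozygous *Dup* the same bin had 1.44 (1.30 to 1.58) as deposited and 2.23 (2.02 to 2.45) balanced, and in heterozygous *Dup* 1.30 (0.956 to 1.63) and 1.65 (1.22 to 2.08), the latter on 59 read pairs. *Inv2* also had a telomeric maximum in *Armh3*, 1.68 (1.55 to 1.82) at 200 kb, and balanced homozygous *Dup* had one in the same bin, 1.71 (1.55 to 1.88). Beyond 300 kb the ratio of *Inv2* was 0.862 (0.831 to 0.895), and 5 of the 109 telomeric partner bins (4.59%) were lower and 0 higher, both below the shares over all windows of 9.97% and 5.76%.

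**Figure D5:**
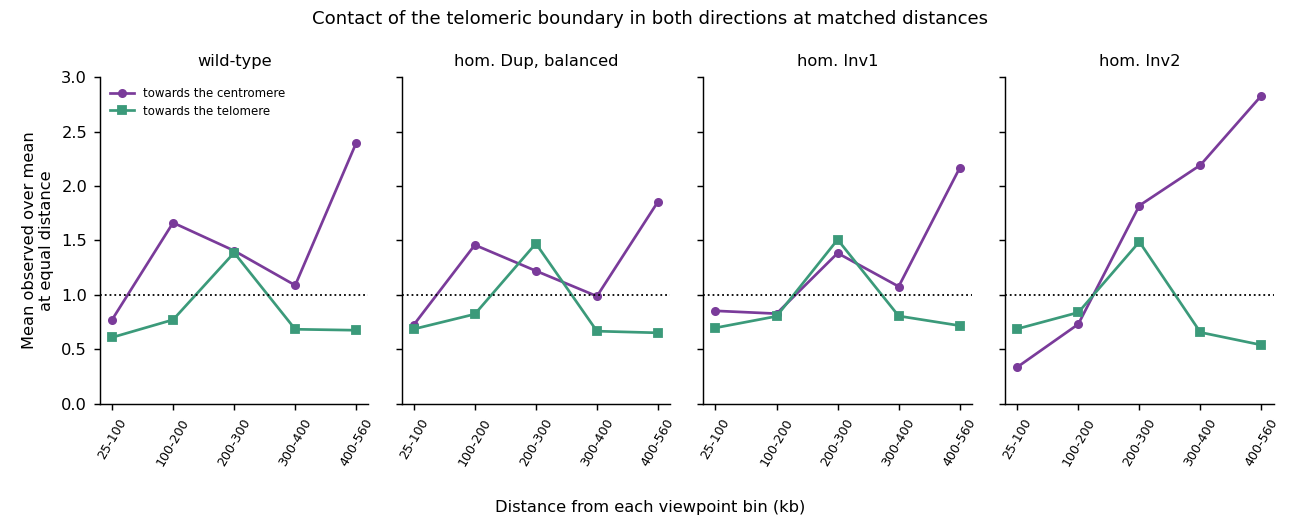
Mean contact of the viewpoint towards the centromere (circles) and towards the telomere (squares) in 5 ranges of distance in the reference order (x axis, kb), as observed over mean at equal distance (y axis), in the wild-type and the homozygous mutants, *Dup* after balancing. Counting intervals are given in the text for the wild-type. The telomeric line has the same hump from 200 to 300 kb in each panel, between 1.39 and 1.51, while the centromeric line is nearly flat up to 200 kb in *Inv1* and starts at 0.335 in *Inv2*.

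Both directions were also compared at matched distances of the reference order. The inversions move centromeric bins to other distances, so the ranges below are not matched on the inverted chromosomes. Up to 200 kb, contact was higher towards the telomere in homozygous *Inv2* and higher towards the centromere in the wild-type. In homozygous *Inv1* it was higher towards the centromere from 25 to 100 kb and nearly equal from 100 to 200 kb. From 25 to 100 kb the ratio of centromeric to telomeric O/E was 1.27 in the wild-type, 1.22 (1.196 to 1.253) in homozygous *Inv1* and 0.488 (0.473 to 0.503) in homozygous *Inv2*. From 100 to 200 kb it was 2.16 in the wild-type, 1.03 (1.00 to 1.06) in homozygous *Inv1* and 0.872 (0.847 to 0.896) in homozygous *Inv2*. From 300 to 400 kb *Inv2* had 3.35 (3.24 to 3.47) against 1.59 (1.51 to 1.68) in the wild-type. Heterozygous *Inv1* had an O/E of 1.15 towards the centromere and 0.766 towards the telomere from 100 to 200 kb, a ratio between those of the wild-type and the homozygote.

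The centromeric boundary was the highest maximum of the centromeric stripe in each of the 6 maps. At the bin of the wild-type maximum, O/E was 6.11 in the wild-type, 5.20 (4.93 to 5.48) in homozygous *Inv1*, 5.46 (5.13 to 5.79) in heterozygous *Inv1*, 4.80 in homozygous *Inv2*, 4.60 (4.33 to 4.87) in homozygous *Dup* and 4.62 (3.87 to 5.36) in heterozygous *Dup* as deposited. Balanced, the latter were 4.70 (4.42 to 4.97) and 4.53 (3.80 to 5.26). The contrast of the viewpoint with its neighbours for this boundary was lower in each mutant map than the 1.80 of the wild-type, from 1.23 (1.18 to 1.28) in homozygous *Dup* as deposited to 1.57 (1.51 to 1.63) in homozygous *Inv1*, with 1.47 (1.41 to 1.54) in balanced homozygous *Dup*. The neighbour on the centromeric side holds the telomeric cut of *Dup* and *Inv2*. For the middle boundary it was 1.38 (1.35 to 1.42) in homozygous *Inv1*, 1.48 (1.43 to 1.53) in homozygous *Inv2* and 1.46 (1.415 to 1.498) in homozygous *Dup* as deposited, against 1.73. Balanced homozygous *Dup* had 1.65 (1.60 to 1.70), within an interval that overlaps that of the wild-type. Over the whole centromeric stripe the contrast was 1.20 in the wild-type, 1.11 in homozygous *Inv1* and 1.03 in homozygous *Inv2*. In homozygous *Inv2* the centromeric neighbour had 1.63, above the viewpoint with 1.39. In homozygous *Dup* this neighbour was above the viewpoint too, with 1.34 against 0.953 as deposited and 1.23 against 1.10 balanced. The contrast in homozygous *Dup* was 0.884 as deposited and 1.03 balanced. In heterozygous *Dup* it was 0.950 as deposited and 1.02 (0.983 to 1.06) balanced. For the *Lbx1* TAD of *Inv2* it was 0.916 (0.906 to 0.926), with an O/E of 3.45 in the centromeric neighbour and 2.23 in the viewpoint.

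Over the gene starts, the median ratio to the wild-type towards the centromere was 0.901 in homozygous *Inv1*, 0.898 in homozygous *Inv2* and 0.891 in heterozygous *Inv1*. As deposited and balanced, it was 0.561 and 0.760 in homozygous *Dup* and 0.645 and 0.690 in heterozygous *Dup*. In homozygous *Inv1*, 1 of the 18 start bins was lower, that of *Fbxw4*, at 0.371 (0.327 to 0.414) against 1.18, and 0 were higher, beside 4.41% and 4.73% over all windows and partner bins. In *Inv2*, 2 were higher, those of *Btrc* and *Gm6807*, and 2 lower, that of *Fbxw4* and the bin that *Poll* and *Dpcd* share, beside 5.76% and 9.97%. In heterozygous *Inv1*, 1 was lower, that of *Fbxw4*, beside 5.05%. In homozygous *Dup*, 10 of the 18 were lower as deposited, beside 17.3%, and 5 after balancing, beside 5.45%. In either version 0 were higher, beside 14.4% and 5.2%. In heterozygous *Dup*, 10 of the 18 were lower as deposited and 8 balanced, beside 8.16% and 4.58% over all windows. Its centromeric partner bins with enough read pairs had lower shares of 31.2% and 27.9%. Several of these start bins held fewer than 10 read pairs in heterozygous *Dup*, among them that of *Tlx1* with 9. Among all centromeric partner bins of the viewpoint, the lower share was 42.6% as deposited and 24.3% balanced in homozygous *Dup*. It was 10.5% in homozygous *Inv1*, 16.1% in *Inv2* and 11.7% in heterozygous *Inv1*, and in *Inv2* 16.1% were higher. Towards the telomere, 0 of the 10 start bins were higher or lower in the 3 inversion maps and in balanced homozygous *Dup*. As deposited, 5 were lower in homozygous *Dup* and 4 in heterozygous *Dup*, beside 44% and 22.5% of all telomeric partner bins. In balanced heterozygous *Dup* 2 were lower, beside 3.92%. Over all windows these shares were 17.3%, 8.16% and 4.58%. The start of *Oga*, the nearest telomeric start, had 1.14 in the wild-type. It had 1.27 (1.23 to 1.31) in homozygous *Inv1*, 1.28 (1.23 to 1.34) in heterozygous *Inv1* and 1.22 (1.18 to 1.26) in homozygous *Inv2*. In homozygous *Dup* it had 0.873 (0.836 to 0.909) as deposited and 1.27 (1.21 to 1.32) balanced. In heterozygous *Dup* it was below the wild-type in both versions, with 0.803 (0.710 to 0.895) and 0.987 (0.874 to 1.10).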

How the data were processed

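Reads of 20 libraries were aligned to mm9 by the authors (HiCUP, with Bowtie2). Replicates were pooled, and read pairs of sufficient mapping quality were binned at 5 kb with Juicer tools. The submitters' processing notes give Bowtie2 2.4.2 and Juicer 1.19.02. The authors deposited 1 contact signal map per genotype. The deposited signal is KR-balanced in the wild-type and inversion maps and LOIC-normalized in both *Dup* maps. The 3 deposited subtraction maps hold the authors' own comparisons and were not used. Merging fixed the replicates, so no replicate test was possible.

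Python 3.11.15 with numpy 2.4.6 was used. Bin factors were solved from the signal, and read pairs were whole within 0.01. Bins without values in a map were left out. Intervals are 1.96 standard errors from counts of read pairs. Guide positions came from exact matches to the mm9 genome, genes from GENCODE on that build with current symbols from RefSeq. TADs and boundaries were set to whole 5 kb bins, with approximate ends. All maps held 3350758 (heterozygous *Dup*) to 13101700 (homozygous *Dup*) read pairs. Steps were tested on simulated maps. The named genes were the 6 of both TADs and *Oga*, the 5 gene starts with the highest wild-type O/E in each direction, and up to 5 local maxima per map and direction, of which the report gives those its results turn on. *Kcnip2* was named after its value was seen. The members, zones and lists were chosen with earlier results of these data known. Alternatives were a viewpoint of the first bin alone, a mean at equal distance without the rearranged interval, balancing of the *Dup* maps, and distances of the rearranged order.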

Additional observations from a re-analysis of the deposited data

How the results depend on the processing

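No paired analysis was possible because the replicates are merged in each map, and for the same reason leaving out a replicate could not be run.

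With the first bin alone as viewpoint, the wild-type stripes moved to 1.56 towards the centromere and 0.712 towards the telomere. The *Lbx1* TAD ratio moved to 0.798 in homozygous *Dup*, 1.65 in *Inv2* and 0.789 in heterozygous *Dup*, and the *Fgf8* TAD ratio to 0.896 in homozygous *Dup*, 0.598 in homozygous *Inv1*, 0.358 in *Inv2* and 0.840 in heterozygous *Dup*. The other 8 of 17 stayed within their counting interval.

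With the mean at equal distance taken without the rearranged interval, homozygous *Dup* had ratios of 1.253 (*Lbx1* TAD), 1.23 (*Fgf8* TAD) and 0.984 (telomeric side), heterozygous *Dup* 1.08, 1.03 and 0.941, and *Inv2* 1.80, 0.382 and 1.02. The 6 ratios of both *Inv1* maps stayed within their interval. The direction of the *Dup* ratios of both TADs therefore depended on this choice.

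Balanced *Dup* maps gave 0.865, 0.899 and, reversed, 1.04 in the homozygote, and 0.837 (*Fgf8* TAD) and 0.943 (telomeric side) in the heterozygote.

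With the rearranged order, the *Lbx1* TAD ratio was 0.960 in homozygous *Dup*, 0.981 in homozygous *Inv1*, 1.01 in heterozygous *Dup*, 0.927 in heterozygous *Inv1* and, reversed, 0.966 in *Inv2*. The *Fgf8* TAD ratio was 1.10, 0.698, 0.974, 0.835 and, reversed, 1.40. Of the smaller zones, added after seeing the data, the middle boundary (1.13) and the pieces of the *Fgf8* TAD inside (1.02) and outside (2.37) *Inv1* reversed in *Inv2*, and the centromeric flank (1.04) in homozygous *Dup*. The cause was not tested.

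Far partner bins held few read pairs, and heterozygous *Dup* had the widest intervals. Zone ends are approximate.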
